A study of Rattus norvegicus with 9 samples.

Results

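The cytosolic ribosome is built from ribosomal RNA and 1 copy of most ribosomal proteins, so the genes of its large (Rpl) and small (Rps) subunits are usually described as a set that is expressed in step. Their mRNAs begin with a run of pyrimidines, the terminal oligopyrimidine motif, through which mTOR and Larp1 set how strongly they are translated. In striated muscle a paralog, Rpl3l, is made beside its ubiquitous counterpart Rpl3, and mammalian genomes hold many retrotransposed copies of ribosomal protein genes, most of them processed pseudogenes.

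The genes described here are the rows of the deposited heart expression table whose symbol begins with Rpl or Rps and a digit, or with Rplp or Rpsa, without the S6 kinases (Rps6k). The rule found 88 of 22601 rows: 46 genes of the large subunit, 31 of the small subunit, 8 paralogs, 2 further copies (Rpl30l1 and Rps10l1) and Rps19bp1, whose product binds a ribosomal protein but is no subunit. RNA of rat hearts was sequenced at an age of 48 weeks in 9 libraries, 3 per group. SHR+Allisartan were spontaneously hypertensive rats that received allisartan, which blocks the type 1 receptor of angiotensin II, over 34 weeks by gavage (volume 1 ml, in distilled water). SHR were the same strain given the same volume of distilled water alone over that time, and WKY were Wistar Kyoto rats, the related strain with normal blood pressure, given distilled water in the same way. All 3 groups therefore shared the gavage, and no WKY rats received the drug. Nothing in the labels ties a library to a single animal, so a p-value here reflects only how far these libraries vary, part of which may be technical.

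Levels are FPKM, fragments per length of transcript and per total of mapped fragments, divided by 1 rescaling factor per library, and n is 3 libraries per group throughout. FPKM is a level per length, so genes can be compared with each other on it, though only roughly. The comparison is uncertain where a gene shares reads with near-identical copies. A change is the difference between group means of log2(FPKM + 0.5), which understates changes of low genes, with its standard error (SE). A gene was called when limma's two-sided Benjamini-Hochberg adjusted p over all 11718 tested genes was under 0.05. All adjusted p-values below come from that fit. The SHR libraries enter both the comparison with SHR+Allisartan and that with WKY, so those comparisons are not independent.

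The deposited values summed to 359207 to 388172 FPKM per library, and 14279 to 14948 genes were above 0. The number of reads is not known from them. Correlations of log2 values across genes were 0.985 to 0.990 within groups and 0.961 to 0.975 between groups. Markers of heart muscle were high in every library, with a summed level of 12 genes of 38138 to 39236 FPKM in SHR+Allisartan, 29771 to 29883 FPKM in SHR and 32399 to 34234 FPKM in WKY. These genes did not move together, with 7 called higher and 5 lower in SHR+Allisartan than in SHR. Tnni3 averaged 10804 FPKM in SHR+Allisartan and 4708 FPKM in SHR, while Actc1 averaged 6569 and 9447 FPKM. The sum therefore gives no single direction for the heart muscle markers. The 12 fibroblast markers summed to 776 to 867 FPKM in SHR+Allisartan, 1526 to 1751 FPKM in SHR and 660 to 726 FPKM in WKY. The 12 macrophage markers, of which Marco was at 0, summed to 233 to 282 FPKM in SHR+Allisartan, 436 to 512 FPKM in SHR and 163 to 184 FPKM in WKY. Erythroid markers, mostly globins, summed to 860 to 2263 FPKM in SHR+Allisartan, 174 to 343 FPKM in SHR and 301 to 585 FPKM in WKY. In bulk tissue, fewer cells of a type and less RNA per cell cannot be told apart, and the part of these markers in the results below was not tested.

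Ribosomal protein genes were a sizeable part of the heart transcriptome in every group. Their deposited FPKM made up 5.90%, 5.66% and 5.41% of the library total in SHR+Allisartan, 5.93%, 6.19% and 6.12% in SHR, and 6.33%, 5.82% and 5.41% in WKY. The SHR+Allisartan libraries all lay below the SHR libraries on this share, while the WKY libraries spanned both groups. After rescaling, the summed levels overlapped between all groups, at 20332 to 23550 FPKM in SHR+Allisartan, 21382 to 22224 FPKM in SHR and 19625 to 24828 FPKM in WKY. WKY replicate 1 held the highest sum of the 9 libraries and WKY replicate 3 the lowest.

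Single subunit genes differed widely in listed FPKM although the proteins they encode are needed in about equal number. The median level was 274 FPKM over 45 tested large subunit genes and 266 FPKM over 29 tested small subunit genes. Rps29, a short zinc-binding protein of the small subunit, had the highest mean at 1005 FPKM. Rpl41, Rpl35, Rpl26 and Rpl23 followed at 693, 654, 639 and 580 FPKM. Low values were found for subunits that every cell uses: Rps6, the target of the S6 kinases, averaged 0.428 FPKM over the 9 libraries and Rpl7a averaged 4.58 FPKM. Among others, Rpl8 and Rps9 were listed at 0 in all 9 libraries, and Rpl30l1 was above 0 only in SHR replicate 3, at 0.284 FPKM. Of the 88 members, 4 failed the filter on low values, so 84 were tested. Rps6, Rpl39l and Rps19bp1 had no library at 0.5 FPKM or more in 1 group and passed the filter through the other groups. The direction of their calls against that group was set by the filter, so their values are given below with no test, and a count without them, made after the values were seen, stands beside the member count of each comparison.

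Between SHR+Allisartan and SHR, members of both subunits were called in both directions, at a share close to that of all tested genes. Of 84 tested members, 13 were higher and 19 lower in SHR+Allisartan than in SHR. Of all tested genes 16.1% were higher and 17.4% lower. Both directions together came to 38.1% of the members, against 33.5% of all tested genes and 62.5% of 464 genes that are neither members nor copies and have a mean of 100 FPKM or more. The median log2 change of the members was -0.02 and that of all tested genes -0.03. Without the 3 genes near the filter, 13 of 81 members were higher and 18 lower. Large subunit genes were higher in 8 and lower in 9 of 45 cases, and small subunit genes were higher in 4 and lower in 9 of 29. The SD of the log2 change over the 74 tested subunit genes was 0.43, against 0.45 over all tested genes. The split depended on the scaling: 13 members were higher and 30 lower after quantile normalization, and 12 higher and 28 lower after cyclic loess normalization.

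**Figure D1:**
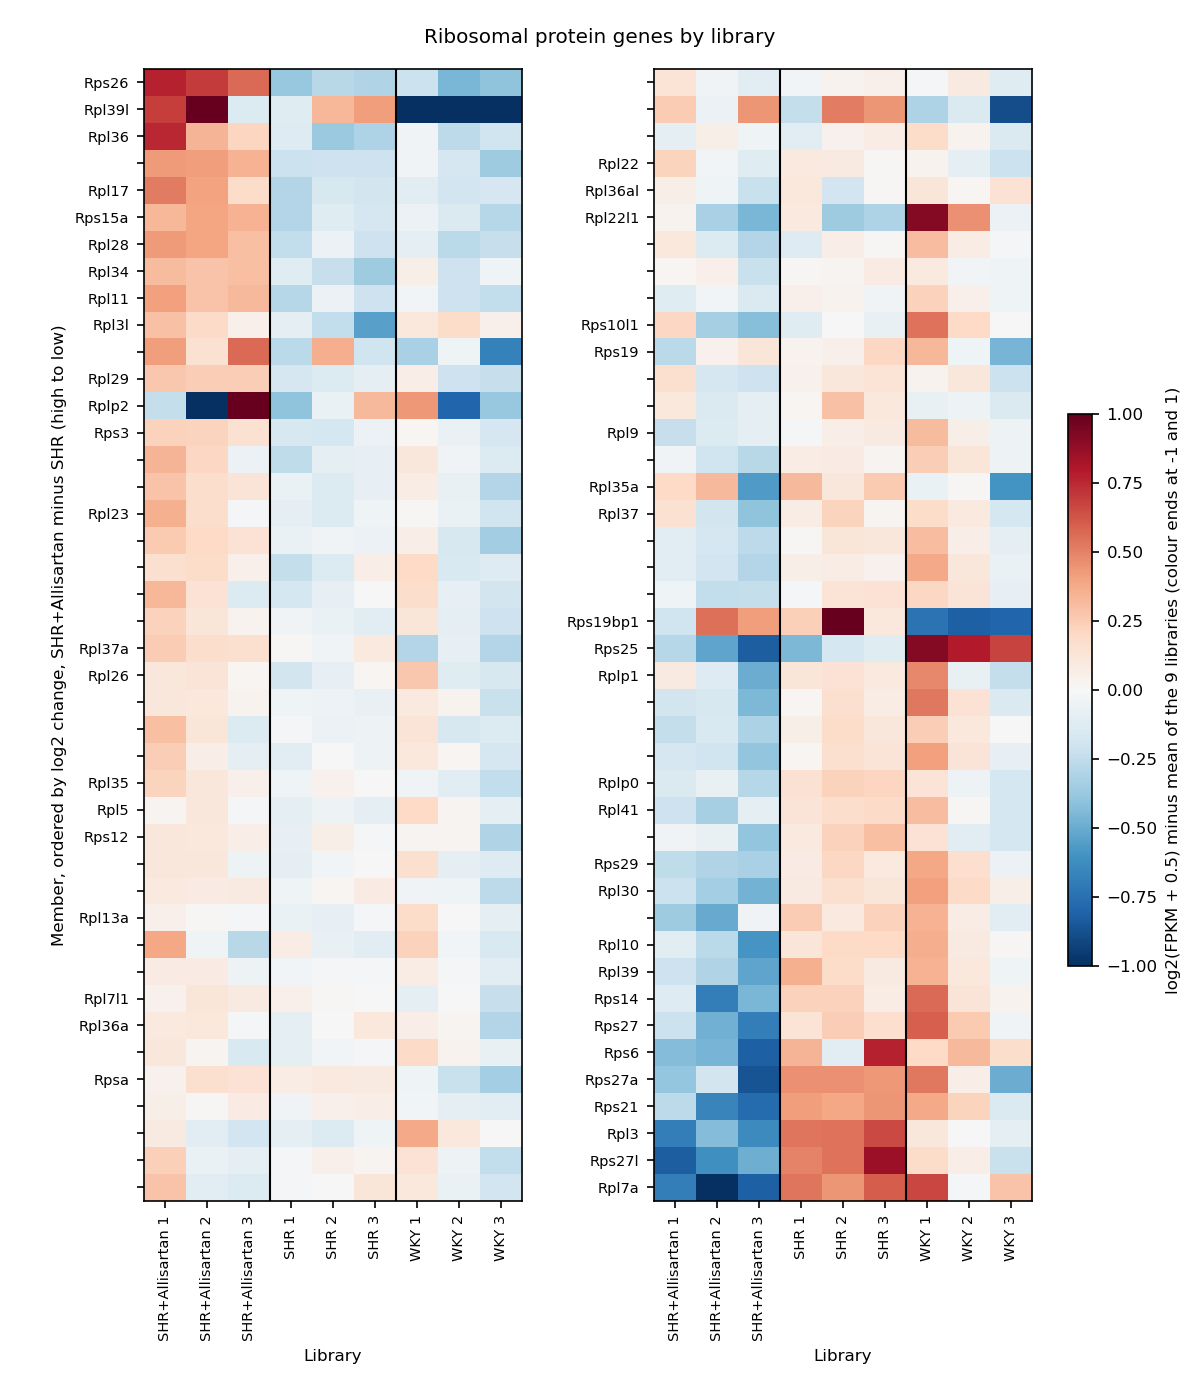
Level of the 84 tested members in each library, as log2(FPKM + 0.5) minus the gene's mean over the 9 libraries (colour, with ends at -1 and 1), with libraries in columns and genes, named where the text names them, ordered by their log2 change between SHR+Allisartan and SHR. Genes at the head of the left block are higher in the 3 SHR+Allisartan libraries and genes at the foot of the right block lower, while most genes differ little between SHR and WKY.

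Rps26, which lines the channel where mRNA leaves the small subunit, changed most among the members that rose. It had 888, 844 and 769 FPKM in SHR+Allisartan, 399, 429 and 421 FPKM in SHR, and 447, 379 and 394 FPKM in WKY. Every SHR+Allisartan library lay above all 6 others, and SHR and WKY overlapped. The log2 change was 1.00 (SE 0.08) between SHR+Allisartan and SHR, with an adjusted p of 2.7e-05, and 1.03 (SE 0.08) between SHR+Allisartan and WKY, a 2.05-fold higher level (adjusted p = 2.4e-05). Between SHR and WKY it was 0.04 (SE 0.08, adjusted p = 0.791).

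Large subunit genes were among those that rose as well, at smaller size. Rpl36 had 544, 407 and 374 FPKM in SHR+Allisartan, 294, 249 and 260 FPKM in SHR, and 315, 269 and 281 FPKM in WKY. Its rise of 0.70 (SE 0.13, adjusted p = 0.0021) rested on 3 libraries that differed among themselves, though none reached down to the other groups. Rpl28, a large subunit protein with no counterpart in budding yeast, had 123, 120 and 113 FPKM in SHR+Allisartan, 77.2, 88.1 and 79.3 FPKM in SHR, and 85.4, 75.9 and 77.9 FPKM in WKY. Again only the treated libraries stood apart (log2 change against SHR 0.54, SE 0.07, adjusted p = 0.00044).

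Rpl17, Rps15a, Rpl34, Rpl11, Rpl29 and Rps3 were also higher in SHR+Allisartan than in SHR, with log2 changes of 0.58, 0.56, 0.54, 0.52, 0.39 and 0.34. Rpl11, which with Rpl5 and 5S ribosomal RNA can bind the p53 regulator Mdm2, averaged 263 ± 12.1 FPKM in SHR+Allisartan, 183 ± 14.8 FPKM in SHR and 186 ± 15.5 FPKM in WKY (SD). Its partner Rpl5 averaged 239 ± 10.8 FPKM in SHR+Allisartan, 220 ± 4.43 FPKM in SHR and 240 ± 25.1 FPKM in WKY (SD) and was not called (log2 change against SHR 0.12, adjusted p = 0.257). Each of these 6 called genes was above both other groups in all 3 treated libraries.

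**Figure D2:**
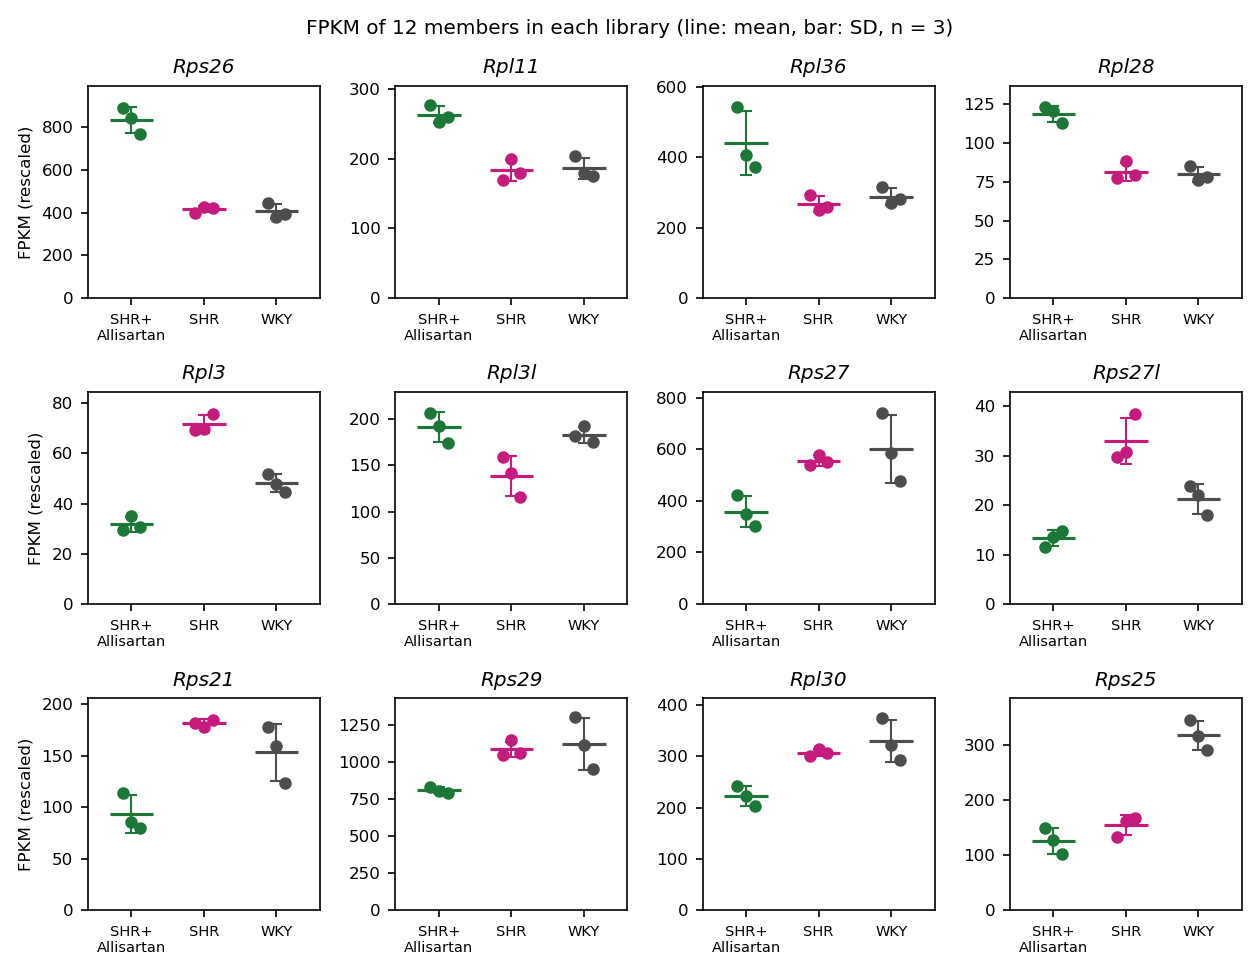
FPKM of 12 members in each of the 9 libraries, with groups from left to right SHR+Allisartan, SHR and WKY (points: libraries, line: mean, bar: SD, n = 3), each vertical axis starting at 0. Rps26, Rpl11, Rpl36 and Rpl28 are highest in SHR+Allisartan, Rps27, Rps29 and Rpl30 lowest there, Rpl3 and Rps27l highest in SHR, Rpl3l lowest in SHR, and Rps25 lies above both SHR groups in WKY.

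Among the members that fell with allisartan, the small subunit genes Rps21, Rps27, Rps29 and Rps14 were well expressed. Rps21 had 114, 86.1 and 79.7 FPKM in SHR+Allisartan, 182, 178 and 185 FPKM in SHR, and 178, 159 and 123 FPKM in WKY. The treated libraries lay below all others, and the log2 change against SHR was -0.98 (SE 0.15, adjusted p = 0.00068), a 1.97-fold lower level. Rps27, a zinc finger protein of the small subunit, had 422, 350 and 302 FPKM in SHR+Allisartan, 538, 578 and 550 FPKM in SHR, and 739, 587 and 478 FPKM in WKY. All treated values were below the other 6, with a log2 change against SHR of -0.65 (SE 0.15, adjusted p = 0.0079). Rps29 had 833, 804 and 792 FPKM in SHR+Allisartan, 1049, 1144 and 1062 FPKM in SHR, and 1299, 1113 and 951 FPKM in WKY. It fell by 0.42 on the log2 scale relative to SHR (SE 0.10, adjusted p = 0.0085) with no overlap.

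Large subunit genes that fell included Rpl30, Rpl39 and Rplp0. Rpl30 had 243, 223 and 203 FPKM in SHR+Allisartan, 301, 315 and 307 FPKM in SHR, and 375, 323 and 294 FPKM in WKY, so the treated libraries were below all others (log2 change against SHR -0.47, SE 0.09, adjusted p = 0.0037). Rpl39, which lines the tunnel through which the new peptide leaves, had 233, 218 and 186 FPKM in SHR+Allisartan, 345, 305 and 287 FPKM in SHR, and 342, 289 and 261 FPKM in WKY. It fell by 0.56 on the log2 scale (SE 0.11, adjusted p = 0.0044), again without overlap. Rpl10, which joins the large subunit late in its assembly, had 366, 329 and 264 FPKM in SHR+Allisartan, 431, 454 and 454 FPKM in SHR, and 510, 422 and 399 FPKM in WKY (log2 change against SHR -0.49, SE 0.12, adjusted p = 0.0098). Its treated values were the lowest of the 9 libraries.

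The stalk proteins, which recruit elongation factors to the large subunit, did not share a call. Rplp0, the base of the stalk, averaged 380 ± 28.5 FPKM in SHR+Allisartan, 490 ± 14.8 FPKM in SHR and 420 ± 45.3 FPKM in WKY (SD), with a log2 change between SHR+Allisartan and SHR of -0.37 (SE 0.09, adjusted p = 0.0079). Rplp1 was not called (log2 change -0.30, SE 0.18, adjusted p = 0.215), although its 3 treated values were below the 3 SHR values. Rplp2 was low, with 4.69, 2.24 and 29.1 FPKM in SHR+Allisartan, 4.11, 5.32 and 7.16 FPKM in SHR, and 7.76, 3.02 and 4.20 FPKM in WKY. SHR+Allisartan replicate 3 alone set its mean, and the log2 change was 0.34 (SE 0.68, adjusted p = 0.731).

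Rpl3 and its striated muscle paralog Rpl3l changed in opposite directions in both comparisons that involve SHR. Rpl3, which reaches towards the peptidyl transferase centre of the large subunit, had 29.4, 35.2 and 30.5 FPKM in SHR+Allisartan, 69.2, 69.8 and 75.8 FPKM in SHR, and 51.7, 48.0 and 44.5 FPKM in WKY. The 3 groups did not overlap: SHR was highest and SHR+Allisartan lowest. The log2 change was -1.17 (SE 0.09, adjusted p = 2.3e-05) between SHR+Allisartan and SHR, 0.57 (SE 0.09, adjusted p = 0.0012) between SHR and WKY, and -0.59 (SE 0.09, adjusted p = 0.00095) between SHR+Allisartan and WKY.

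Rpl3l had 207, 193 and 175 FPKM in SHR+Allisartan, 159, 142 and 116 FPKM in SHR, and 182, 192 and 175 FPKM in WKY. The SHR libraries lay below the other 6, and SHR+Allisartan and WKY overlapped. Its log2 change was 0.47 (SE 0.11, adjusted p = 0.0076) between SHR+Allisartan and SHR, -0.41 (SE 0.11, adjusted p = 0.022) between SHR and WKY, and 0.06 (SE 0.11, adjusted p = 0.710) between SHR+Allisartan and WKY. The SHR to WKY call was lost without WKY replicate 1, WKY replicate 2 or SHR replicate 3, with adjusted p up to 0.076. The level of Rpl3l per level of Rpl3 was 7.05, 5.48 and 5.72 in SHR+Allisartan, 2.29, 2.03 and 1.52 in SHR, and 3.52, 4.01 and 3.93 in WKY. On this ratio no 2 groups overlapped, with SHR+Allisartan highest and SHR lowest. The fibroblast marker sums given above were also highest in SHR, at values that did not overlap the other groups, and their part in the Rpl3 result was not tested.

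Rps27l, a paralog of Rps27 known as a p53 target, followed the same order as Rpl3. It had 11.6, 13.5 and 14.8 FPKM in SHR+Allisartan, 29.8, 30.7 and 38.4 FPKM in SHR, and 23.8, 22.0 and 17.9 FPKM in WKY. No groups overlapped, and the log2 change was -1.28 (SE 0.13, adjusted p = 9.6e-05) between SHR+Allisartan and SHR, 0.62 (SE 0.13, adjusted p = 0.0076) between SHR and WKY, and -0.65 (SE 0.13, adjusted p = 0.0058) between SHR+Allisartan and WKY. Rps27 itself was far more abundant and did not differ between SHR and WKY beyond its spread (log2 change -0.09, SE 0.15, adjusted p = 0.711).

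No other paralog was called between SHR+Allisartan and SHR. Rpl36al, a paralog of Rpl36a, averaged 52.6 ± 5.06 FPKM in SHR+Allisartan, 54.2 ± 5.63 FPKM in SHR and 58.8 ± 2.74 FPKM in WKY (SD). Rpl7l1 averaged 21.5 ± 0.599 FPKM in SHR+Allisartan, 20.6 ± 0.362 FPKM in SHR and 18.8 ± 1.54 FPKM in WKY (SD). Rpl22l1 had 36.1, 28.1 and 25.6 FPKM in SHR+Allisartan, 38.0, 27.6 and 28.4 FPKM in SHR, and 67.4, 48.6 and 33.9 FPKM in WKY. Its call against WKY (log2 change -0.69, SE 0.22, adjusted p = 0.045) was made between overlapping groups and was lost under 9 of 20 alternatives. Rpl39l was listed at 0 in all 3 WKY libraries, at 1.29, 4.83 and 0.506 FPKM in SHR+Allisartan and at 0.516, 0.898 and 0.977 FPKM in SHR. These levels are close to the filter.

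Rps19, Rpl13a and Rpl22 were not called in any comparison. Rps19, often mutated in Diamond-Blackfan anaemia, averaged 43.7 ± 6.11 FPKM in SHR+Allisartan, 47.7 ± 3.20 FPKM in SHR and 43.8 ± 12.0 FPKM in WKY (SD), with a log2 change between SHR+Allisartan and SHR of -0.13 (adjusted p = 0.580). Rpl13a, which can leave the ribosome to repress inflammatory mRNAs, averaged 192 ± 4.26 FPKM in SHR+Allisartan, 183 ± 4.72 FPKM in SHR and 194 ± 18.9 FPKM in WKY (SD), with a log2 change of 0.07 (adjusted p = 0.497). Rpl22 averaged 167 ± 21.3 FPKM in SHR+Allisartan, 171 ± 5.30 FPKM in SHR and 153 ± 13.1 FPKM in WKY (SD).

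Between the untreated strains the family differed little. Of 84 tested members, 5 were higher and 2 lower in SHR than in WKY, while 11.9% of all tested genes were higher and 9.92% lower. Both directions together came to 8.33% of members, against 21.8% of all tested genes and 39.7% of the other genes at 100 FPKM or more. The median log2 change was 0.00081 for members and 0.01 for all tested genes, and the SD over the 74 subunit genes was 0.19, against 0.43 over all tested genes. The 5 that were higher were Rpl3, Rps27l, Rpsa, Rpl37a and Rps19bp1, and without the 3 genes near the filter 4 of 81 were higher and 2 lower. With cyclic loess normalization 12 were higher and 2 lower. The higher count was 3 without WKY replicate 3, SHR replicate 2 or SHR replicate 3, and the lower count was 1 without WKY replicate 1, WKY replicate 2 or SHR replicate 3.

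Rps25, a small subunit protein needed by several viral internal ribosome entry sites, had the largest log2 change in size between SHR and WKY among the 74 tested subunit genes. It had 149, 126 and 102 FPKM in SHR+Allisartan, 133, 161 and 167 FPKM in SHR, and 344, 315 and 291 FPKM in WKY. The 6 SHR libraries, treated or not, lay below the 3 WKY libraries, and SHR+Allisartan overlapped SHR. The log2 change was -1.05 (SE 0.13, adjusted p = 0.00044) between SHR and WKY and -1.34 (SE 0.13, adjusted p = 0.0001) between SHR+Allisartan and WKY. Between SHR+Allisartan and SHR it was -0.30 (SE 0.13, adjusted p = 0.111).

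Rpsa, the small subunit protein that is also known as the laminin receptor, had 390, 423 and 419 FPKM in SHR+Allisartan, 398, 405 and 403 FPKM in SHR, and 366, 324 and 299 FPKM in WKY. Both SHR groups stood above WKY without overlap, with a log2 change between SHR and WKY of 0.29 (SE 0.08, adjusted p = 0.022). Rpl37a had 84.9, 80.8 and 79.9 FPKM in SHR+Allisartan, 72.1, 69.7 and 76.2 FPKM in SHR, and 58.1, 67.2 and 58.2 FPKM in WKY. The log2 change of Rpl37a between SHR and WKY was 0.25 (SE 0.07, adjusted p = 0.034), and the 3 groups did not overlap. Leaving out single libraries raised the adjusted p to at most 0.070 for Rpsa (lost without WKY replicate 2 or 3 or SHR replicate 2 or 3). For Rpl37a it reached 0.119, with the call lost without WKY replicate 1 or 3 or any SHR library. Rps19bp1 was near the filter, at 0.678, 1.48 and 1.30 FPKM in SHR+Allisartan, 1.10, 2.65 and 0.953 FPKM in SHR, and 0.311, 0.266 and 0.281 FPKM in WKY.

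Against WKY, SHR+Allisartan again held calls in both directions. There were 18 of 84 members higher and 18 lower, while 12.9% of all tested genes were higher and 11.4% lower. Both directions together came to 42.9% of members, against 24.3% of all tested genes and 48.9% of the other genes at 100 FPKM or more. Without the 3 genes near the filter, 16 of 81 were higher and 17 lower. The median log2 change was 0.03 for members and -0.01 for all tested genes. Without WKY replicate 1, the library with the highest summed level, 17 members were higher and 11 lower. Large subunit genes were higher in 9 and lower in 7 of 45 cases, and small subunit genes were higher in 6 and lower in 9 of 29.

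The 3 libraries of a group can also be set against the range of the other 6. All SHR+Allisartan libraries lay outside that range for 32 of 84 members (38.1%), 15 higher and 17 lower, against 22.5% of all tested genes (11.7% higher, 10.7% lower). For the SHR libraries it was 5 members (5.95%), against 22.2% of all tested genes (12.7% higher, 9.48% lower). Rpl3, Rplp0, Rps21 and Rps27l were higher and Rpl3l was lower. For the WKY libraries it was 6 members (7.14%), against 14.7% of all tested genes (7.42% higher, 7.27% lower). Rps25 was higher and Rpl37a, Rpl39l, Rpl7l1, Rps19bp1 and Rpsa were lower. Rpl39l and Rps19bp1 here, and Rps6 among the 17 lower for SHR+Allisartan, passed the filter only through the other groups, which set their direction. These counts describe where the libraries lie and carry no test.

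**Figure D3:**
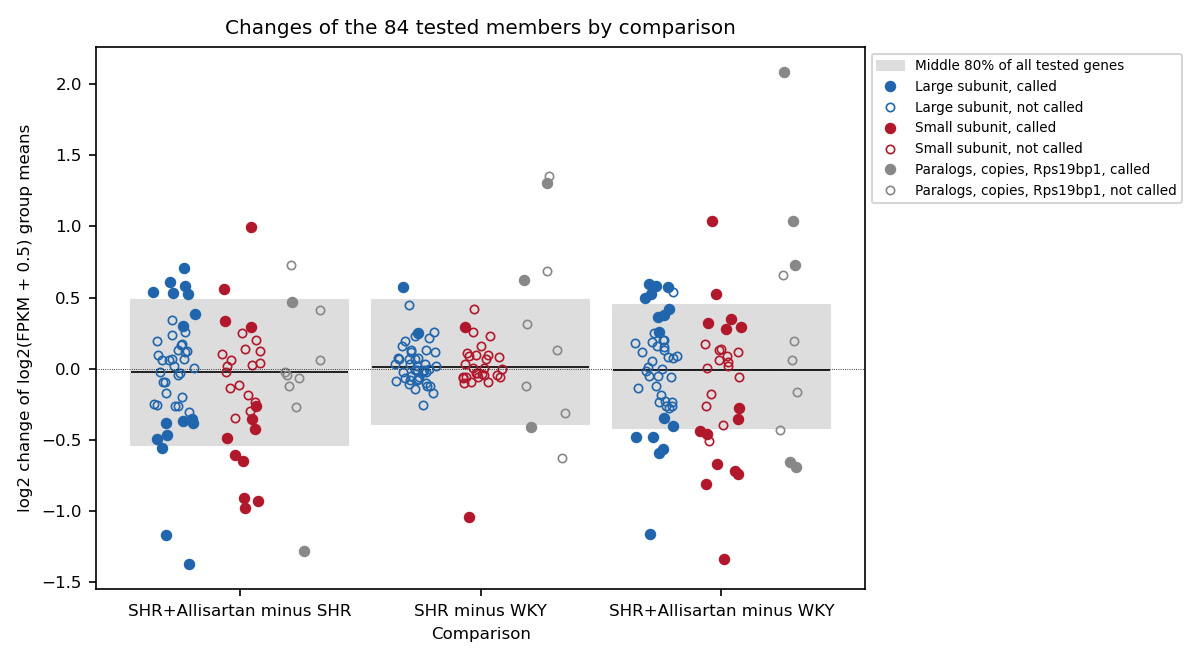
Log2 change of each tested member in the 3 comparisons (one point per gene, filled where called at an adjusted p under 0.05), split by large subunit, small subunit and the 10 remaining members, over the band that holds the middle 80% of all tested genes (black line: their median). Members spread on both sides of 0 in both comparisons with SHR+Allisartan, while most subunit genes lie close to 0 between SHR and WKY.

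The first bases of the mRNA were compared between members that moved in opposite directions, since the pyrimidine run there is the shared feature of the family. Windows of 15 bases on either side of the annotated start were taken from RefSeq promoter sequences (build GRCr8), which held 68 members. A C at the start base followed by 4 bases that are each C or T, read on the gene's own strand, was present in 22 of 68 members (32.4%) and in 854 of 27457 genes (3.11%) of the same table. It was present in 4 of 11 members higher in SHR+Allisartan than in SHR, in 6 of 15 lower ones and in 12 of 41 that were not called. Annotated starts can lie some bases away from the starts used in heart, so a missing match says only that these letters are not at that base. The sequences below, chosen from the called members named in the text so that both directions show starts with and without the match, come from 5 members that rose and 6 that fell, followed by Rpl3, Rpl3l and Rps27l. The share with the match among those shown therefore has no meaning. Capitals mark the unbroken pyrimidine run from the annotated start base, and a sequence without capitals has none.
Rps26 (higher, chr7:1643390-1643419, minus strand): gagagccgccgggtcCTCTTTCgagtcttg
Rpl34 (higher, chr2:221962269-221962298, minus strand): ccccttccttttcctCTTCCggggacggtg
Rpl28 (higher, chr1:78083518-78083547, minus strand): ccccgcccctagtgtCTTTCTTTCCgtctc
Rpl36 (higher, chr9:1533765-1533794, plus strand): ctgtccggccgccatCggaaagctgcaggt
Rpl11 (higher, chr5:153560788-153560817, minus strand): ggggacttgaagcttgtttggtgctgggga
Rps27 (lower, chr2:177964592-177964621, minus strand): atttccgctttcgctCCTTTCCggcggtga
Rpl10 (lower, chrX:157205835-157205864, plus strand): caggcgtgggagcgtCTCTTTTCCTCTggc
Rplp0 (lower, chr12:46718376-46718405, minus strand): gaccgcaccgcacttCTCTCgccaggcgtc
Rpl39 (lower, chrX:121195882-121195911, minus strand): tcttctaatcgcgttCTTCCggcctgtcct
Rps21 (lower, chr3:187724023-187724052, plus strand): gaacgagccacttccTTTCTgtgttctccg
Rpl7a (lower, chr3:30637121-30637150, plus strand): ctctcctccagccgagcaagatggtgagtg
Rpl3 (lower, chr7:113507976-113508005, minus strand): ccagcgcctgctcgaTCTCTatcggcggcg
Rpl3l (higher, chr10:14258431-14258460, plus strand): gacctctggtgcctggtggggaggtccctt
Rps27l (lower, chr8:76443643-76443672, plus strand): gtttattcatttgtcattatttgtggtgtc
Rps26 and Rpl28 rose with runs of 7 and 10 pyrimidines, and Rps27 and Rpl10 fell with runs of 7 and 12. Rpl11 rose and Rpl7a fell with no pyrimidine at the annotated start. Rps21 and Rpl3 have runs that start with T, and the muscle paralog Rpl3l and the paralog Rps27l have no pyrimidine at the annotated start.

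Gene copies bear on how the low members can be read. Outside the name rule the table held 130 rows, named LOC or RGD, whose description names a cytosolic ribosomal protein. Of these, 65 were at 0 in all libraries, 39 passed the filter and 12 had a mean of 10 FPKM or more. Together the copies made up 0.206%, 0.187% and 0.157% of the library total in SHR+Allisartan, 0.218%, 0.240% and 0.237% in SHR, and 0.270%, 0.239% and 0.213% in WKY. The SHR+Allisartan libraries were lower than the 6 others on this share. How reads shared by a gene and its copies were divided between them is not given in the sources used here, so levels of members with near-identical copies are uncertain.

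Among the copies with the highest means were LOC100911847 (like Rps14), LOC100359498 (like Rpl35a), LOC100360573 (like Rps12) and LOC100910768 (like Rps27a). For Rpl35a the copies held 85.0% of the summed level: the member itself averaged 14.4 FPKM and its copies 82.0 FPKM. For Rps14 the copies held 41.6% and for Rps27a 34.9%. Rpl8, listed at 0, had 2 copies that summed to 6.88, 7.15 and 9.83 FPKM in SHR+Allisartan, 9.87, 11.8 and 12.1 FPKM in SHR, and 15.8, 13.1 and 11.9 FPKM in WKY. Those of SHR+Allisartan were below all others, and the summed row fell by 0.49 on the log2 scale relative to SHR (adjusted p = 0.026). The only copy of Rps9 was at 0.

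Member and copy moved alike for Rps14 and Rps27a, and less so for Rps12 and Rpl22. Rps14 had 212, 143 and 168 FPKM in SHR+Allisartan, 272, 272 and 244 FPKM in SHR, and 342, 254 and 238 FPKM in WKY, and fell by 0.60 relative to SHR (SE 0.15, adjusted p = 0.012). Its copy LOC100911847 had 145, 135 and 110 FPKM in SHR+Allisartan, 166, 195 and 172 FPKM in SHR, and 243, 195 and 168 FPKM in WKY, and fell by 0.45 relative to SHR (adjusted p = 0.026). In both rows the treated values lay below the other 6. Rps27a, made as a fusion to ubiquitin, had 75.7, 87.2 and 54.5 FPKM in SHR+Allisartan, 137, 137 and 134 FPKM in SHR, and 143, 104 and 70.4 FPKM in WKY (log2 change against SHR -0.93, SE 0.22, adjusted p = 0.0096). Its copy LOC100910768 fell by 0.96 relative to SHR (adjusted p = 0.00059). The treated values of Rps27a overlapped WKY, whose libraries differed about as much as the groups did. The copies of Rps12 summed to 78.4, 77.5 and 73.9 FPKM in SHR+Allisartan and 44.6 to 60.4 FPKM in the other 6 libraries. Rps12 itself was not called against SHR (log2 change 0.11, adjusted p = 0.387), though its treated values also lay above the other 6. The copy of Rpl22 had 26.3, 20.3 and 22.3 FPKM in SHR+Allisartan and 31.4 to 46.3 FPKM in the others. Rpl22 itself changed by -0.04 relative to SHR (adjusted p = 0.767).

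Rps6 and its copy did not show the same order of groups. Rps6 was at 0.154, 0.138 and 0 FPKM in SHR+Allisartan, 0.616, 0.318 and 1.00 FPKM in SHR, and 0.514, 0.604 and 0.497 FPKM in WKY. The treated values were all below the filter of 0.5 FPKM. Its copy had 3.98, 4.36 and 4.70 FPKM in SHR+Allisartan, 2.44, 3.09 and 3.89 FPKM in SHR, and 5.26, 2.73 and 2.70 FPKM in WKY. With both rows summed the log2 change was 0.23 (adjusted p = 0.430), so no direction can be given for Rps6. Rpl7a, also low, had 2.38, 1.78 and 2.15 FPKM in SHR+Allisartan, 6.26, 5.83 and 6.60 FPKM in SHR, and 6.91, 4.12 and 5.16 FPKM in WKY. It fell by 1.38 relative to SHR (SE 0.16, adjusted p = 0.0002) without overlap, and by 1.32 with its copy added (adjusted p = 0.00026). That copy held only 7.38% of the summed level, so adding it could change little.

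Summing every member with its copies, an alternative chosen after the data were seen, kept 31 of 32 calls between SHR+Allisartan and SHR in the same direction, 7 of 7 between SHR and WKY, and 35 of 36 between SHR+Allisartan and WKY. Some of these calls had a direction set by the filter. They were Rps6 in the first comparison, Rps19bp1 in the second, and Rps6, Rpl39l and Rps19bp1 in the last. Most called members had no copy or copies with a small part of the sum, so their calls could hardly change. Where copies held a large part, Rps14 (41.6%) and Rps27a (34.9%) kept the call against SHR, and Rps6 (89.6%) did not. Rps26, with 8 copies that held 2.36% of its summed level, changed by 0.98 in place of 1.00. Rps6 lost its calls, and Rpl9 and Rps27a became lower in SHR+Allisartan than in WKY. Among the 25 tested members with a copy that passed the filter, 1 was higher and 10 were lower in SHR+Allisartan than in SHR. Among the 59 without one, 12 were higher and 9 were lower. The 10 lower members with such a copy include Rps6, whose direction was set by the filter. Of all tested genes 16.1% were higher and 17.4% lower. Whether the 2 kinds of member differ was not tested.

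**Figure D4:**
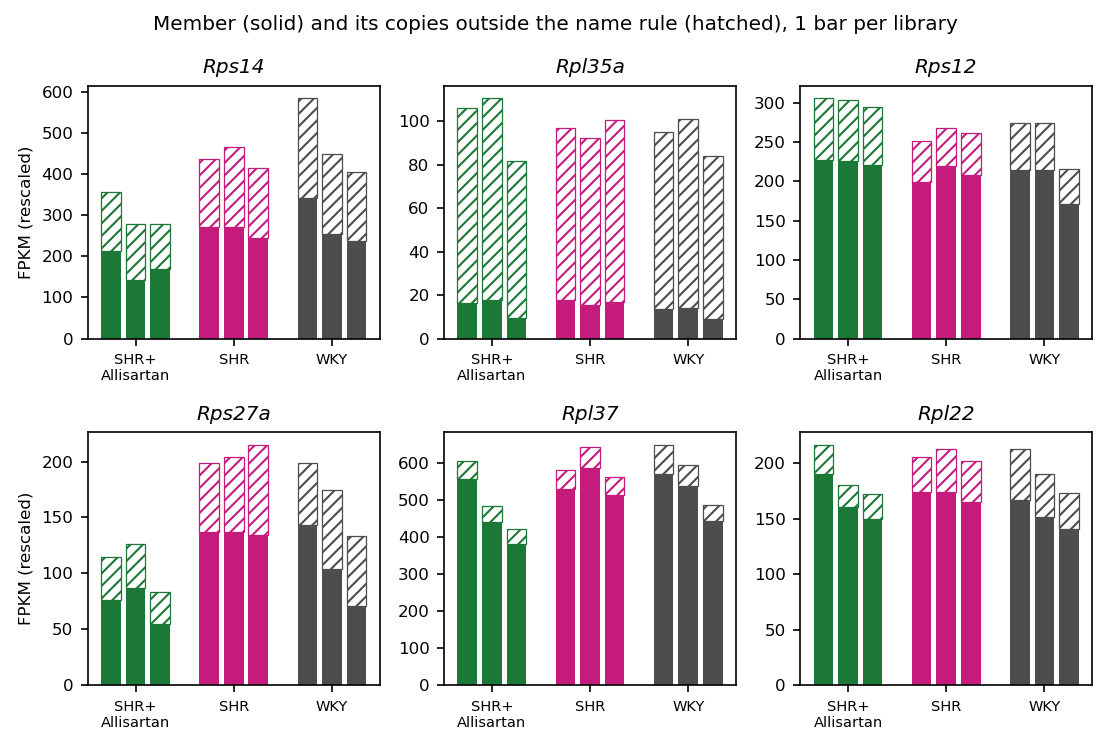
FPKM of 6 members with a high summed level of copies (solid) and of those copies (hatched, stacked on top), with 1 bar per library and groups from left to right SHR+Allisartan, SHR and WKY. Copies make up most of the stack for Rpl35a, a sizeable part for Rps14 and Rps27a, and a small part for Rpl37.

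Subunit genes whose names fall outside the rule were tested in the same fit. Rack1, a scaffold for signalling kinases on the small subunit, had 118, 124 and 106 FPKM in SHR+Allisartan, 175, 173 and 181 FPKM in SHR, and 208, 175 and 156 FPKM in WKY, and fell by 0.60 (SE 0.10, adjusted p = 0.0013). The treated libraries lay below the range of the other 6. Fau, which encodes a small subunit protein fused to a ubiquitin-like one, was not called (log2 change -0.11, SE 0.09, adjusted p = 0.412).

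Genes that work with the ribosome were counted in the same fit, in which 16.1% of all tested genes were higher and 17.4% lower in SHR+Allisartan than in SHR, and 11.9% were higher and 9.92% lower in SHR than in WKY. Of 15 elongation and termination factors, 2 were higher and 8 lower in SHR+Allisartan than in SHR (median log2 change -0.36), and 3 were higher and 0 lower in SHR than in WKY (0.10). Eef1a1, which brings aminoacyl tRNA to the ribosome, had 264, 279 and 287 FPKM in SHR+Allisartan, 404, 429 and 480 FPKM in SHR, and 325, 304 and 310 FPKM in WKY. Its groups did not overlap, and it fell by 0.66 relative to SHR (SE 0.07, adjusted p = 0.00015). Of 38 initiation factors, 10 were higher and 5 lower in SHR+Allisartan than in SHR (median 0.05), and of 69 tested genes of ribosome biogenesis 10 were higher and 9 lower (median 0.03). Of 25 genes listed for the control of translation of ribosomal protein mRNAs, such as Mtor and Larp1, 5 were higher and 5 lower (median -0.06). The list is loose: Max, a MYC associated factor, is among the 5 that were higher (log2 change 0.65, adjusted p = 0.00041). Of 19 other genes known to carry the terminal oligopyrimidine motif, a list that shares members with the factor lists, 7 were higher and 5 lower (median 0.07). These medians stand beside -0.03 for all tested genes between SHR+Allisartan and SHR and 0.01 between SHR and WKY.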

How the data were processed

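Heart RNA of 9 libraries was analysed, 3 each of SHR+Allisartan, SHR and WKY. RNA was isolated with a mirVana kit and stranded mRNA libraries were prepared with a TruSeq kit, per the labels' protocols. The submitters' processing notes name the build Rnor_6.0 and the tools HISAT2, Trimmomatic, HTSeq, Cufflinks and DESeq. Their versions and roles, and how reads shared by gene copies were handled, were not given in the sources used here. Values start from what was deposited: a table by the authors with FPKM per gene and library. Low values were checked for whole reads and none could be recovered, so depth is unknown and no counting interval is given.

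Libraries were rescaled by median-of-ratios factors (0.963 to 1.04) from the 9194 genes that reached 1 FPKM in every library. Genes at 0.5 FPKM or more in at least 3 libraries were tested (11718). R 4.3.3 with limma 3.58.1 fitted log2(FPKM + 0.5) with 1 mean per group over all 9 libraries (6 residual degrees of freedom) and a variance trend; the procedure was tested on simulated data. Copies were matched to members by the deposited description. Figures used Python 3.11.15 and matplotlib 3.10.9. Replicate numbers were not treated as a pairing of the libraries, and the labels do not say whether they are one.

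Members, lists, tests and alternatives were chosen with earlier results of these data known. The naming rule took called members (up to 10 per direction and comparison), the largest changes, the highest and lowest means and a panel of 24 members, Fau, Rack1, called genes of each list and the 5 most abundant copies; members listed at 0, those outside all other libraries, Rps10l1, and copies of Rpl8, Rps6, Rps9 and Rpl9 were named after their values were seen. Endothelial, smooth muscle and lymphocyte marker lists were also counted: between SHR+Allisartan and SHR, 2 of 10, 0 of 10 and 0 of 2 tested genes were higher and 1, 2 and 1 lower. Some genes the rule named are not reported here.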

Additional observations from a re-analysis of the deposited data

How the results depend on the processing

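Every comparison was repeated under 20 alternatives: other scalings, pseudocounts and filters, only the libraries compared, robust moderation, a replicate block, leaving out each library and summing copies. Of the named members called, 24 of 26 between SHR+Allisartan and SHR, 4 of 7 between SHR and WKY and 24 of 29 between SHR+Allisartan and WKY were called under every alternative that gave a value. These totals include calls near the filter that carry no test: Rps6 in the first comparison, Rps19bp1 in the second, and Rps6, Rpl39l and Rps19bp1 in the last. Members lower in SHR+Allisartan than in SHR numbered 30 after quantile normalization, against 19. Members higher in SHR than in WKY numbered 8 without rescaling, 8 after quantile and 12 after cyclic loess normalization, against 5, and the member median there was 0.10 after cyclic loess normalization, against 0.00081. The summed deposited level of SHR was 23330 FPKM with copies added, against 22474 FPKM. With copies summed, the change of Rps6, whose direction was set by the filter, was 0.23 (SHR+Allisartan minus SHR) and 0.14 (SHR+Allisartan minus WKY). Neither was called. The causes were not tested.

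Leaving out 1 library gave 11 to 16 members higher and 14 to 24 lower between SHR+Allisartan and SHR (medians -0.05 to 0.03), 3 to 6 higher and 1 to 3 lower between SHR and WKY (-0.06 to 0.08), and 13 to 19 higher and 11 to 23 lower between SHR+Allisartan and WKY (-0.03 to 0.09). Summed deposited levels were 20960 to 22084 FPKM in SHR+Allisartan, 22140 to 22923 FPKM in SHR and 20449 to 23023 FPKM in WKY. Over all genes, 1551 were called between SHR and WKY without SHR replicate 3, against 2558. With the replicate block, 16 members were higher and 21 lower between SHR+Allisartan and SHR, 4 and 3 between SHR and WKY, and 19 and 19 between SHR+Allisartan and WKY. Deviations of libraries with the same number correlated at -0.062 to 0.083, so the numbers are not treated as a pairing. Rpl41 lost its call between SHR+Allisartan and SHR under 5 alternatives.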
